A study of Homo sapiens with 9 samples.

Results

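LIM1215 is an established colorectal cancer cell line that carries wild-type RAS genes and, in its parental form, responds to cetuximab, an antibody against the epidermal growth factor receptor EGFR. The baseline transcriptome of these parental cells was described from their own 3 libraries, LIM1215-parental replicates 1 to 3, out of 9 libraries in the series. The members were chosen by their sample titles alone. The cells received no drug. They were kept in RPMI medium with fetal bovine serum, alongside the populations under selection, for as long as cetuximab was applied to those. RNA was isolated, poly(A) RNA was made into stranded libraries and fragments were sequenced from both ends. The libraries are described as technical replicates, and the point at which the material was divided is not given. Their spread therefore measures repeated sampling of 1 culture or 1 cell line, not variation between tumours. The labels give the cells as colorectal cancer, and the levels of marker genes are described below. The marker lists were chosen with earlier results of these data known, so they are not an independent check of this label.

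The colon is lined by a single layer of epithelial cells that arises from stem cells at the base of crypts. Wnt signals keep the stem cells dividing, and Notch signals steer their daughters towards absorptive or secretory fates. The intestinal homeodomain factors CDX1 and CDX2 and the nuclear receptor HNF4A hold the identity of this epithelium. Colorectal cancer cells often keep parts of this programme while losing the final steps of differentiation. Epithelial cells that move towards a mesenchymal state lose E-cadherin and gain vimentin, N-cadherin and factors such as ZEB1 and TWIST1.

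The libraries held 16773961, 13737416 and 18725014 counts in replicates 1, 2 and 3, over 58920 listed genes. Levels are given as CPM, the count of a gene relative to the total of its library, with totals scaled by TMM factors between 0.9962 and 1.007. A gene was called reached when every library held at least 1 CPM, and listed at 0 when none of the 3 libraries held a count. A count of 0 over the 3 libraries allows a level of up to 0.0609 CPM, a limit that covers counting error only. Of 19873 protein-coding genes, 10922 (55.0%) were reached, 5605 (28.2%) were listed at 0 and 3346 lay in between. A level given as a single number is the mean of the 3 libraries, and over the reached protein-coding genes the SD was a median of 5.7% of the mean. Reached protein-coding genes had a median level of 41.9 CPM, and 2197 of them held at least 100 CPM in every library. Among all listed genes, which include non-coding genes and pseudogenes, 12132 (20.6%) were reached. Replicate 2 stood apart: it was the library farthest from the others for 51.4% of the 9294 genes at 10 CPM or more, against 26.3% for replicate 1 and 22.2% for replicate 3. The differences were small, since 17 of these genes differed by more than 1.5-fold between the highest and the lowest library. What edgeR terms the biological coefficient of variation, here a spread between technical replicates, was 5.19%, and 2.87% without replicate 2. For each pair of libraries, the chi-square of the counts over genes was divided by its degrees of freedom. The ratio was 1.98 for replicates 1 and 3, 4.19 for 1 and 2 and 4.21 for 2 and 3. Every pair thus spread more than counting error alone would give.

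A low count was not always read as a silent gene here. Parts of the genome are present in hg38 a further time as alternate sequences, and some genes share their exons with another gene on the same strand. A read that matches equally well in 2 places, or that falls into 2 genes at once, is not counted by common settings of htseq-count. The setting used is not given, nor whether alternate sequences were part of the alignment. Of the 1469 protein-coding genes in such shared loci, where at least 50% of the gene or of its exons is shared, 50.9% were listed at 0 and 26.7% were reached. Outside shared loci, 18404 protein-coding genes remained, of which 57.2% were reached and 26.4% were listed at 0. The 2 sets also differ in their genes: shared loci hold 42 olfactory receptor genes, all listed at 0. Among genes used by every cell, some in shared loci were low and others were not. PSMB3, a subunit of the proteasome core, was listed at 0, and its locus is fully covered by alternate sequences. RPS18, a protein of the small ribosomal subunit, held 1, 3 and 2 counts under the same coverage. EIF4A1, the helicase that opens messenger RNA for translation, was listed at 0, and all of its exon bases are shared on its strand. For low genes in shared loci the level in the files was not read as a level in the cells. The part of the shared sequence in each value was not tested.

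Most genes of the core machinery lay outside shared loci and were abundant. Of 86 cytosolic ribosomal protein genes, 81 were reached, and together they took 5.81% ± 0.0687 (SD, n = 3) of the counts. RPL10L and RPL3L, which are known for expression in testis and in muscle, were the 2 listed at 0. The 3 between included RPS18 and RPL36A. Of 39 genes named as proteasome subunits, 35 were reached. The 4 at 0 were PSMB3 and PSMB9 within alternate sequences, PSMA8, which is known from testis, and PSMB11, which is known from the thymus. No proteasome gene lay between the limits.

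**Figure D1:**
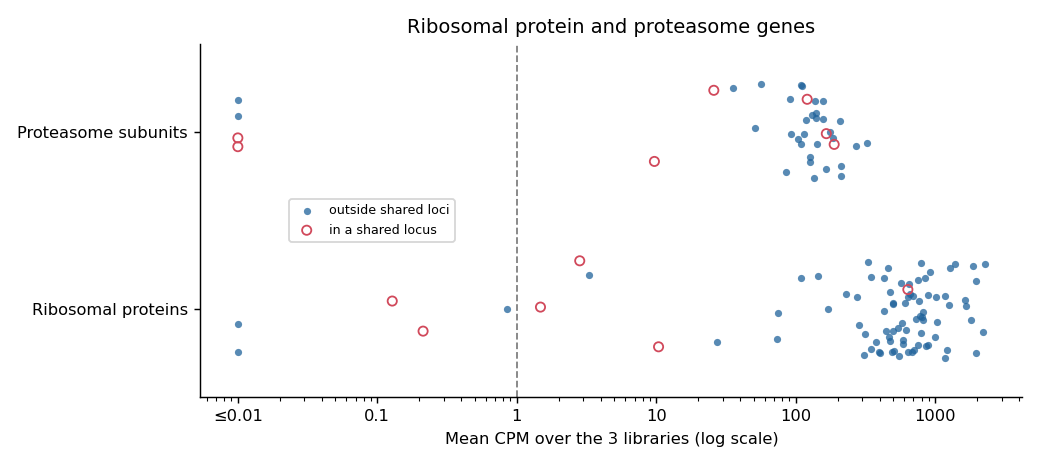
Mean level of each ribosomal protein and proteasome gene over the 3 LIM1215-parental libraries, in CPM on a log axis, with genes at or under 0.01 CPM drawn at the left edge and the dashed line at 1 CPM. Filled points lie outside shared loci and open circles inside, and most open circles of the ribosomal proteins lie to the left of the main group.

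The level of a gene went together with the base composition at its start. Promoters of widely used genes often hold many CG pairs, whereas tissue-restricted genes more often start near a TATA box. Windows from 250 bases before to 50 bases after the start of the canonical transcript were read from hg38 for 17859 of 18391 protein-coding nuclear genes outside shared loci. Genes listed at 0 had a median of 7 CG pairs per window of 300 bases, with quartiles of 3 and 21. The median was 16 for genes with counts that were not reached, 24 for genes at 1 to 10 CPM, 28 at 10 to 100 CPM and 31 at 100 CPM or more. The letters TATAAA on either strand were in 17.8% of the windows of genes listed at 0, in 12.2%, 6.64% and 3.98% of the following classes, and in 5.05% at 100 CPM or more, against 9.16% of all windows. The letters CCAAT on either strand, searched in the same way, varied less, between 33.3% and 36.7% of the windows of a class. These are descriptions of classes of genes, and a match is not a binding site.

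Some single genes departed from the order of the classes and others followed it. The windows of 6 genes are shown to illustrate both, all from RefSeq on GRCh38.p14, 5′ to 3′ on the strand of the gene, with each CG pair in capitals. They belong to 2 reached genes with many CG pairs (ACTG1, EGFR), to 2 reached gut genes with fewer or none (CDX2, GPA33) and to 2 genes listed at 0 (FN1, PDGFRA). ACTG1 encodes a cytoplasmic actin, and its window at chr17:81512750-81513049 on the minus strand held 50 CG pairs. CDX2 at chr13:27969266-27969565 on the minus strand held 16. GPA33, the gene of a colon epithelial surface antigen, at chr1:167090328-167090627 on the minus strand held 0. EGFR at chr7:55018767-55019066 on the plus strand held 33. FN1, the fibronectin gene, at chr2:215436019-215436318 on the minus strand held 38. PDGFRA, the gene of a growth factor receptor of mesenchymal cells, at chr4:54229043-54229342 on the plus strand held 8.
ACTG1: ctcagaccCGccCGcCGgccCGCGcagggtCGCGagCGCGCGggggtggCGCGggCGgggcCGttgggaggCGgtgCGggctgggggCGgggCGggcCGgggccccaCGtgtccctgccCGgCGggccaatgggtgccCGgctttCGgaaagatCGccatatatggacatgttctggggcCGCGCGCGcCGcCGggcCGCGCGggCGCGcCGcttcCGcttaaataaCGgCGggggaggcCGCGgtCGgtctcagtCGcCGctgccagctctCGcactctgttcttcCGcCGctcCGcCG
CDX2: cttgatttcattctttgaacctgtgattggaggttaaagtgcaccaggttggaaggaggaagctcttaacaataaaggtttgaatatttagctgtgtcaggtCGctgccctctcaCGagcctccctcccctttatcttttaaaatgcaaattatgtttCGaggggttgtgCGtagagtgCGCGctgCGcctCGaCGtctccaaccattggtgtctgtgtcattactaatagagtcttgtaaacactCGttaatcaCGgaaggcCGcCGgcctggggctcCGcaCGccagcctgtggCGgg
GPA33: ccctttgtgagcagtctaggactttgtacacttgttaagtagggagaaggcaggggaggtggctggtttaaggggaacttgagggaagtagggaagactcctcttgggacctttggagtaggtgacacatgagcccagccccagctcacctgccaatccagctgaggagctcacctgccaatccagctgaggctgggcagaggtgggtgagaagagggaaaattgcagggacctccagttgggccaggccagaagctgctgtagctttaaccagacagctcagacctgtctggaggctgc
EGFR: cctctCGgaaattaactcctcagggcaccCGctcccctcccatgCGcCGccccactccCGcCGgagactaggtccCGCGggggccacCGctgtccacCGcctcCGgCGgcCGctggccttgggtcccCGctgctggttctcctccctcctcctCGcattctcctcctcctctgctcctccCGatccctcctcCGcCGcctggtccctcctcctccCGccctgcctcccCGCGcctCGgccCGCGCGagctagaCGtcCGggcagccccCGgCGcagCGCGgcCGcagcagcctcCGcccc
FN1: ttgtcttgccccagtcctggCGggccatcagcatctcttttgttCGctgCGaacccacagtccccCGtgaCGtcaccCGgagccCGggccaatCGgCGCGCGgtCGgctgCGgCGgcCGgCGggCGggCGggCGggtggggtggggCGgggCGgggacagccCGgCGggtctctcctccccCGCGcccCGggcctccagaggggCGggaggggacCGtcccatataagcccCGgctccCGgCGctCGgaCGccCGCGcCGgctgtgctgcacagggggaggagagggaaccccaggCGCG
PDGFRA: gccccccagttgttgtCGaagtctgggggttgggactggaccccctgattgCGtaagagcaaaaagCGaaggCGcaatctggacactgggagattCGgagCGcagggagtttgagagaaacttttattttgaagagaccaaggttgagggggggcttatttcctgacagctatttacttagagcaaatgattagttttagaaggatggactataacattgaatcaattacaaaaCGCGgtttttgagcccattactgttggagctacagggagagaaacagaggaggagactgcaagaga
FN1 was thus listed at 0 with a window of 38 CG pairs, whereas GPA33 had a mean level of 323 CPM with 0. ACTG1, EGFR and PDGFRA lay with the order of the classes. None of the 6 windows held TATAAA on either strand.

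**Figure D2:**
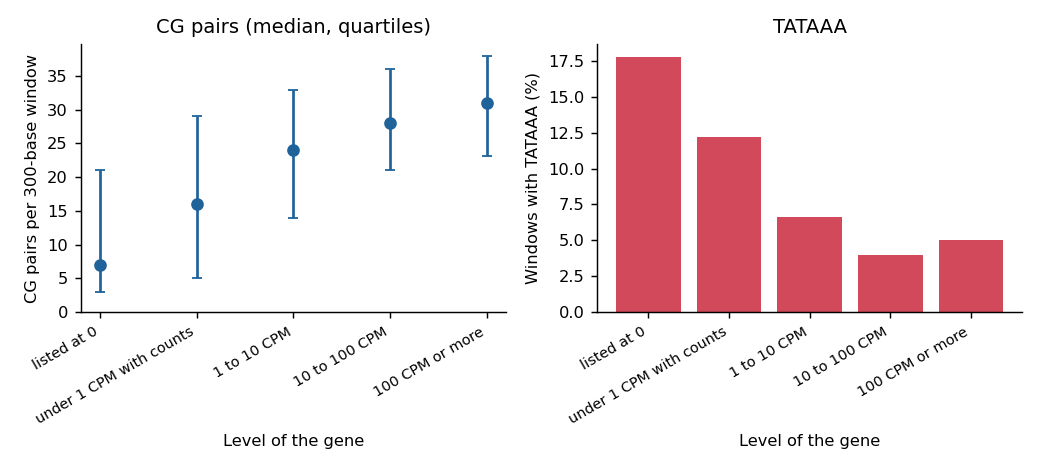
CG pairs per 300-base window (left, median with quartiles) and the share of windows with TATAAA in percent (right) for protein-coding genes outside shared loci, in 5 classes of mean level. The median rises from 7 CG pairs in genes listed at 0 to 31 in genes at 100 CPM or more, and the quartiles of neighbouring classes overlap.

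Transcripts of the mitochondrial genome were the most counted. COX1, a catalytic subunit of cytochrome c oxidase, held 15708, 16183 and 15316 CPM in replicates 1 to 3. COX3 and COX2, further subunits of that enzyme, followed at means of 9267 and 8665 CPM, and ND4 of NADH dehydrogenase at 8295 CPM. The 3 libraries lay within a narrow range for each of these genes. All 37 mitochondrial genes took 7.2% ± 0.107 (SD, n = 3) of the counts, of which the 13 protein genes took 6.47%. Each of the 13 was reached, down to ND6 at a mean of 138 CPM. Protein-coding genes of both genomes took 98.0% of the counts, lncRNAs 0.685% and pseudogenes 0.493%. The 100 most counted genes took 20.9% ± 0.221, and between 939 and 963 genes made up 50% of a library.

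Of the 20 most counted genes, 9 were mitochondrial and 11 nuclear. The nuclear ones were KRT8, ACTG1, EEF1A1, ACTB, KRT18, GAPDH, SPTBN1, HSP90AB1, HSP90AA1, EEF2 and HSPA8. They encode keratins of simple epithelia, actins, elongation factors of translation, a glycolytic enzyme, a spectrin of the membrane skeleton and chaperones. KRT8 held 5841, 5897 and 5612 CPM, and its partner KRT18, with which it pairs into filaments, held 4281, 4152 and 4105 CPM. For KRT8 replicate 2 was the highest, for KRT18 replicate 1, and in both the 3 libraries lay close together. SPTBN1, which links actin to the plasma membrane, held 3186, 3129 and 2978 CPM. CPM rises with the length of a transcript, so levels of different genes are compared below in CPM per kilobase (CPM per kb) of the canonical GENCODE transcript.

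On the scale of CPM per kb, the most abundant nuclear protein-coding genes were KRT8 at 3242 ± 84.8, TMSB10 at 3203 ± 158, GAPDH at 3004 ± 147 and KRT18 at 2958 ± 64.7 (mean ± SD, n = 3). TMSB10 encodes a small protein that binds actin monomers. These 4 were followed by the actins ACTG1 at 2518 ± 135 and ACTB at 2467 ± 144 CPM per kb. The library ranges of neighbours overlapped between KRT8 and TMSB10, TMSB10 and GAPDH, GAPDH and KRT18, and ACTG1 and ACTB. Of the 20 most abundant, 12 encode ribosomal proteins, and S100A6, a calcium-binding protein, and FTH1, the heavy chain of ferritin, are also among them. The order depended on the length used. With the union of all exons, KRT8 fell to 840 CPM per kb and rank 11 and TMSB10 led at 3203, and with the longest transcript TMSB10 led and KRT8 had rank 3 at 2021. Of the 20 genes, 16 were kept with the longest transcript and 14 with the union of exons.

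**Figure D3:**
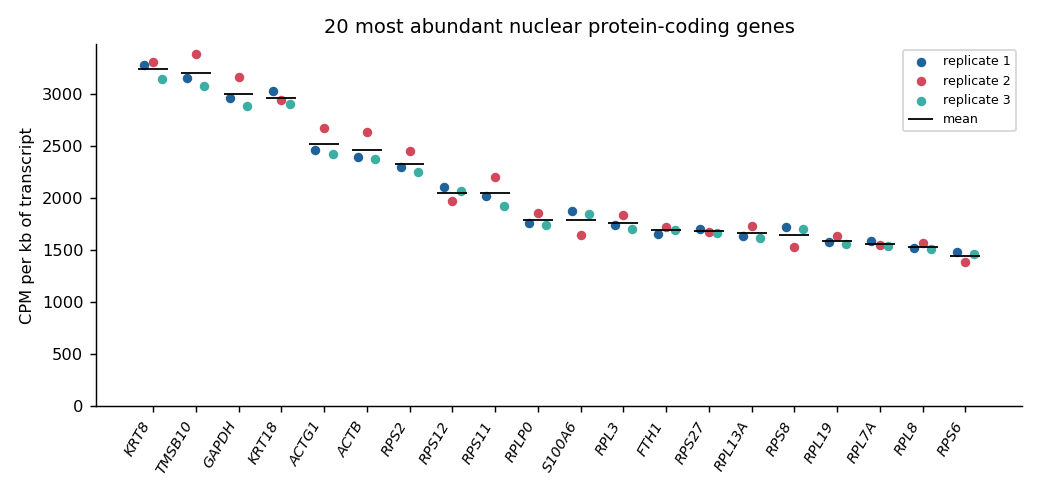
Level in each of the 3 LIM1215-parental libraries (points) and mean (line) of the 20 most abundant nuclear protein-coding genes, in CPM per kb of the canonical transcript. KRT8, TMSB10, GAPDH and KRT18 lie between 2886 and 3381 CPM per kb, above the actins and ribosomal protein genes in all libraries.

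Genes of glycolysis and of the cytoskeleton were reached almost throughout. Of 19 glycolysis genes, 17 were reached, with GAPDH at 3861, ENO1 at 1570, PKM at 1165, LDHA at 934 and LDHB, which lies in a shared locus, at 893 CPM. HK1, the hexokinase of most tissues, held 3, 2 and 2 counts and lies outside shared loci, while HK2, a hexokinase of proliferating cells and muscle, held 96.9, 93.8 and 87.8 CPM. The reads of HK1 were thus near 0 in each library, and those of HK2 were not. ALDOA held 16.3 CPM, and 89.8% of its exon bases are shared with another gene. All 16 cytoskeleton genes were reached, and TUBB, which lies inside an alternate sequence, held 26.7 CPM. Of 11 genes of translation elongation and related steps, 9 were reached, EEF1A1 with 4539, 4491 and 4508 CPM and EEF2 with a mean of 2715 CPM.

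Epithelial genes were high in all libraries. Of 30 epithelial adhesion, junction and keratin genes, 24 were reached (80.0%, against 55.0% of all protein-coding genes), with a list median of 281 CPM against 4.73 CPM over all protein-coding genes. EPCAM, an adhesion molecule of epithelial cells, held 949, 895 and 919 CPM. CDH17, the intestinal cadherin LI-cadherin, held 623, 585 and 605 CPM, and CDH1, E-cadherin, held 382, 387 and 379 CPM. DSP, which anchors keratins at desmosomes, held 1104, 1013 and 1045 CPM. For EPCAM, CDH17 and DSP replicate 2 was the lowest library, and for CDH1 it was the highest. Per kb of transcript, the order below the keratins KRT8 and KRT18 was PHGR1 at 925 CPM per kb, EPCAM at 596, KRT19 at 315 and LGALS4 at 296. PHGR1 is a small gene known from intestinal epithelium, KRT19 a keratin of ductal and gut cells and LGALS4 a galectin of the digestive tract, and the libraries of these 4 did not overlap. GPA33 was at 323 and VIL1, which bundles actin in microvilli, at 312 CPM. The carcinoembryonic antigen gene CEACAM5 was at 138 and CEACAM6 at 41.1 CPM.

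The exceptions among the epithelial genes were few. KRT20 and KRT23, keratins found in differentiated gut cells and in some colon tumours, were listed at 0, but their loci are fully covered by alternate sequences, and OCLN at 1.3 CPM and TJP1 at 6.07 CPM, genes of tight junctions, also lie in shared loci. KRT7, a keratin that colon epithelium commonly lacks, was at 0.721 and CLDN2 at 0.266 CPM.

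Genes of the mesenchymal state were at or near 0. Of 20, 3 were reached (15.0%) and 9 were listed at 0 (45.0%, against 28.2% of all protein-coding genes), and none lies in a shared locus. Vimentin (VIM), N-cadherin (CDH2), fibronectin (FN1), the collagen cross-linking enzyme LOX and the transcription factors ZEB2, TWIST1, TWIST2, FOXC2 and PRRX1 had no count in any library. ZEB1 held 4, 3 and 6 counts. The 3 reached genes were SNAI1, a repressor of E-cadherin, at 2.6 CPM, the calcium-binding protein gene S100A4 at 1.74 CPM and the cadherin gene CDH11 at 1.35 CPM. The whole list summed to between 8.48 and 8.77 CPM per library, and the epithelial list to between 16860 and 17526 CPM.

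**Figure D4:**
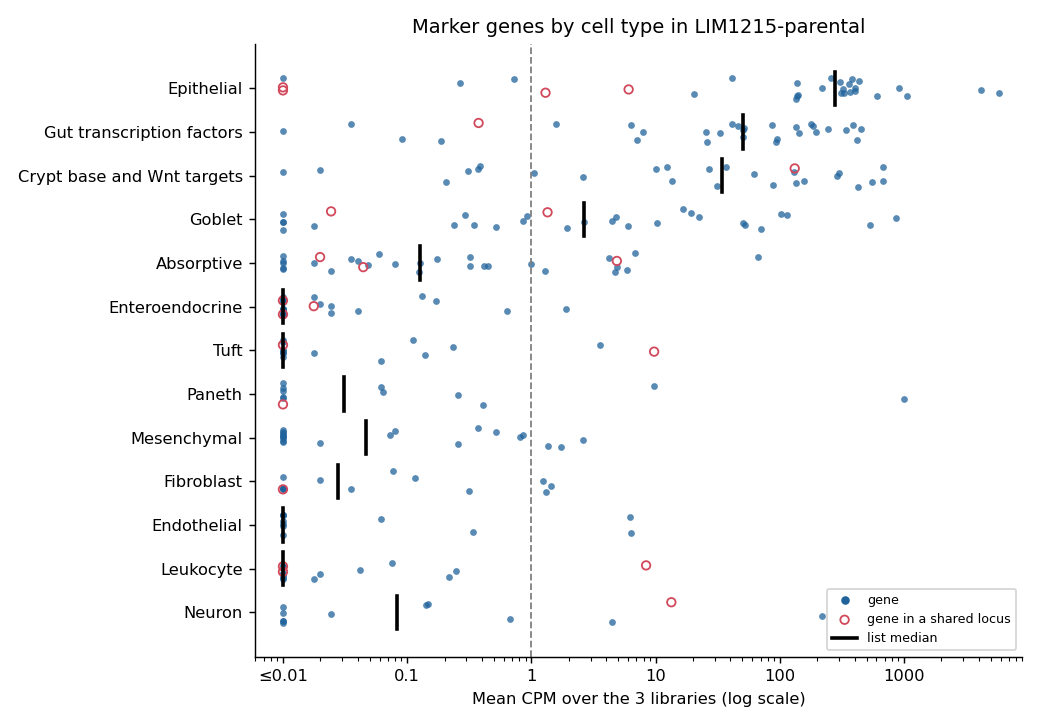
Mean level over the 3 LIM1215-parental libraries of every gene in 13 marker lists, in CPM on a log axis with levels at or under 0.01 drawn at 0.01, the list median as a black line and the dashed line at 1 CPM. Medians of the epithelial, gut transcription factor and crypt base lists lie at 281, 50.4 and 34.0 CPM, and open circles mark genes in shared loci.

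Most transcription factors of gut epithelium were reached. Of 30, 25 were reached (83.3%, against 55.0% of all protein-coding genes), with a list median of 50.4 CPM against 4.73 CPM. KLF5, a factor of proliferating crypt cells, held 463, 435 and 451 CPM. CDX2, the homeodomain factor of intestinal identity, held 409, 438 and 406 CPM, and CDX1, its relative, held 187, 203 and 202 CPM. HNF4A, a nuclear receptor of gut and liver epithelium, held 241, 254 and 232 CPM. CDX2 and HNF4A were highest in replicate 2, where KLF5 was lowest. Per kb, the order was KLF5 at 134, CDX2 at 121, CDX1 at 111, the vitamin D receptor VDR at 83.9 and the epithelial ETS factor EHF at 63.5 CPM per kb, and the libraries of these neighbours did not overlap. Over the 25 genes, 8 of 24 neighbouring pairs in this order overlapped. GATA6, an endodermal zinc finger factor, was at 142 CPM and PDX1, a factor of the duodenum and pancreas, at 32.8 CPM. GATA4, a factor of the small intestine, was listed at 0. ISX, MAF and CREB3L3 were not reached.

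Genes of the HOX clusters, which pattern the body axis, were reached in part. Of 39, 10 were reached (25.6%, against 55.0% of all protein-coding genes) and 17 were listed at 0 (43.6%, against 28.2%). Of the 10, 7 belong to the HOXB cluster, with HOXB9 at 60.7, HOXB3 at 53.8, HOXB6 at 29.9, HOXB7 at 27.5, HOXB5 at 15.9, HOXB8 at 15.5 and HOXB4 at 2.3 CPM. HOXB13, the most posterior gene of that cluster, held 0.957, 0.95 and 1.11 CPM and lay at the limit. Outside that cluster, HOXA3 was at 9.34 and HOXC6 at 1.77 CPM.

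Most crypt base and Wnt target genes were reached. Of 26, 19 were reached (73.1%, against 55.0% of all protein-coding genes), with a list median of 34.0 CPM against 4.73 CPM. LGR5, a receptor for R-spondins and marker of crypt base stem cells, held 689, 685 and 677 CPM. AXIN2, a feedback inhibitor and common Wnt readout, held 549, 554 and 561 CPM. CD44, a hyaluronan receptor, held 693, 670 and 672 CPM, and ASCL2, the transcription factor of crypt base stem cells, held 417, 446 and 427 CPM. The 3 libraries differed little in each of these genes. Per kb, ASCL2 led at 289, followed by LGR5 at 149, AXIN2 at 130, CD44 at 125 and MYC at 77 CPM per kb, with no overlap between neighbours. The ubiquitin ligases RNF43 and ZNRF3, which remove Wnt receptors from the surface, were at 132 and 156 CPM, and 71.0% of the exon bases of RNF43 are shared on its strand. OLFM4, a marker of stem cells in the human crypt, held 12, 13 and 28 counts and was not reached. SMOC2, PROM1, MSI1, HOPX and NOTUM were not reached either, and APCDD1, a Wnt inhibitor, was listed at 0.

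Markers of differentiated gut cells were uneven. Of 30 absorptive genes, 8 were reached (26.7%, against 55.0% of all protein-coding genes), and the list median was 0.126 CPM. The absorptive genes listed at 0 were 5 (16.7%, against 28.2%), so most of those not reached held counts. MYO1A, a brush border myosin, held 62.9, 66.3 and 71.4 CPM and was the highest per kb at 18.4 CPM per kb. The others reached were SLC9A3 at 6.83, DPP4 at 5.91, CDHR5 at 4.88, CEACAM1 at 4.85, SLC26A2 at 4.69, FABP1 at 4.18 and CA1 at 1.28 CPM, which include transporters, a peptidase and a fatty acid carrier of the gut, and CDHR5 lies in a shared locus. The chloride exchanger SLC26A3 was at 0.175, the carbonic anhydrase CA2 at 0.412 and sucrase-isomaltase (SI) at 0.323 CPM.

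Of 29 goblet and secretory genes, 16 were reached (55.2%), close to the 55.0% of all protein-coding genes. MUC13, a membrane mucin, held 876, 895 and 822 CPM and AGR2, a disulfide isomerase of mucin folding, held 539, 532 and 526 CPM. Per kb, AGR2 at 314 and MUC13 at 300 CPM per kb overlapped, and REG4, a secreted lectin of secretory cells, followed at 83.1 CPM per kb. With the longest transcript or the union of exons, TFF3 stood above REG4. TFF3, the intestinal trefoil factor, was at 50.5 CPM, MUC5AC, a gastric gel-forming mucin, at 22.5 CPM and MUC5B at 19.4 CPM. ATOH1, which starts the secretory fate, was at 1.93 CPM and SPDEF, a later goblet factor, at 0.29 CPM. MUC2, the main mucin of the colon, was at 1.35 CPM, but its locus is fully covered by alternate sequences. TFF2, CLCA1, ZG16 and B3GNT6, secreted products and a glycosyltransferase of gastric or goblet cells, were listed at 0 outside shared loci.

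Of 12 Paneth cell genes, only PLA2G2A and REG1A were reached (16.7%, against 55.0% of all protein-coding genes). PLA2G2A, a secreted phospholipase that kills bacteria, held 967, 1066 and 965 CPM, so replicate 2 was the highest, and REG1A, a secreted lectin, was at 9.8 CPM. The Paneth defensins DEFA5 and DEFA6 and the protease MMP7 were listed at 0, and lysozyme (LYZ) was at 0.407 CPM. Of 24 enteroendocrine genes, 1 was reached (4.17%, against 55.0%), the vesicle protein gene SYP at 1.89 CPM. A further 14 were listed at 0 (58.3%, against 28.2% of all protein-coding genes), and 2 of these, CHGA and SCGN, lie in shared loci. Of 15 tuft cell genes, the channel TRPM5 at 3.59 and PLCG2 at 9.74 CPM were reached (13.3%), and 8 were listed at 0 (53.3%). PLCG2 shares 51.5% of its exon bases, and ALOX5, among the tuft cell genes at 0, lies in a shared locus.

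Markers of other tissues were mostly absent, with a few clear exceptions. The share reached ran from 0% of hepatocyte, lung and germ cell genes to 33.3% of melanocyte genes, against 55.0% of all protein-coding genes. PTPRC, the leukocyte antigen CD45, was listed at 0 in a locus covered to 72.8% by alternate sequences, and of 16 leukocyte genes only CD68, which shares 94.9% of its exon bases, was reached, at 8.39 CPM. Summed over the list, leukocyte genes made 7.72 to 10.7 CPM per library. Fibroblast and smooth muscle genes summed to between 4.19 and 5.03 CPM, with COL1A1 at 1.3 CPM on average but not in every library, and 2 of 14 were reached, ACTA2 and PDGFRB. Endothelial genes summed to at most 13.6 CPM, of which ERG at 6.22 and ESAM at 6.3 CPM were the 2 reached of 11. None of 12 hepatocyte, 7 lung or 16 germ cell genes was reached. Among 12 neuronal genes, NEFL, the light chain of neurofilaments, held 217, 224 and 211 CPM, while NEFM, its usual partner, was listed at 0. TUBB3, which shares 92.8% of its exon bases, was at 13.4 and GAD1 at 4.48 CPM. Among 9 erythroid genes, HBA2 held 15.2, 20.4 and 13.7 CPM, but HBA1 and HBA2 are near-identical copies and the split between them is uncertain. Of 9 muscle genes TTN was reached, at 6.68 CPM, of 10 keratinocyte genes KRT10 at 21.5 and TP63 at 1.58 CPM, and of 6 melanocyte genes MITF at 3.3 and PMEL at 1.44 CPM.

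Receptor tyrosine kinases carry growth factor signals into the RAS and MAPK pathway, and EGFR among them is the target of cetuximab. Of 58, 25 were reached (43.1%, against 55.0% of all protein-coding genes) and 17 were listed at 0 (29.3%, close to the 28.2% of all protein-coding genes). EGFR held 276, 284 and 279 CPM. ERBB3, which signals through its partners, held 419, 407 and 407 CPM, and ERBB2, the partner without a known ligand, held 214, 243 and 223 CPM. ERBB4 had no count. MET, the receptor of hepatocyte growth factor, held 268, 258 and 262 CPM. EPHA2 and EPHB2, which bind ephrins on neighbouring cells, held means of 213 and 302 CPM. EGFR and ERBB2 were highest in replicate 2, where MET was lowest.

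Per kb, ERBB3 led the receptor tyrosine kinases at 73.1 ± 1.23 CPM per kb and EPHA2 followed at 53.9 ± 1.96, without overlap. ERBB2 at 49.8 ± 3.33 overlapped with EPHA2, and MET at 38.6 ± 0.721 overlapped with PTK7, a receptor of planar cell polarity, at 36.5 ± 2.86. EGFR at 28.2 ± 0.391 overlapped with EPHB2 at 27.4 ± 0.789 but not with PTK7, and EPHB2 overlapped with EPHA1 at 26.1 ± 1.41. Below them were MST1R, the receptor of macrophage stimulating protein, at 21.1, RYK at 17.3 and the fibroblast growth factor receptors FGFR4 at 16.1, FGFR1 at 15.5 and FGFR3 at 13.7 CPM per kb. The insulin receptor INSR was at 7.36 and IGF1R at 2.83 CPM per kb, so that INSR was above IGF1R in all libraries. The lowest reached were STYK1 at 1.09 and PDGFRB at 0.215 CPM per kb. In the whole order, 9 of 24 neighbouring pairs overlapped. With the union of exons as length, EPHA2 led at 51.4 and MET at 36.4 stood above ERBB3 at 35.1 and EGFR at 17.5 CPM per kb.

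**Figure D5:**
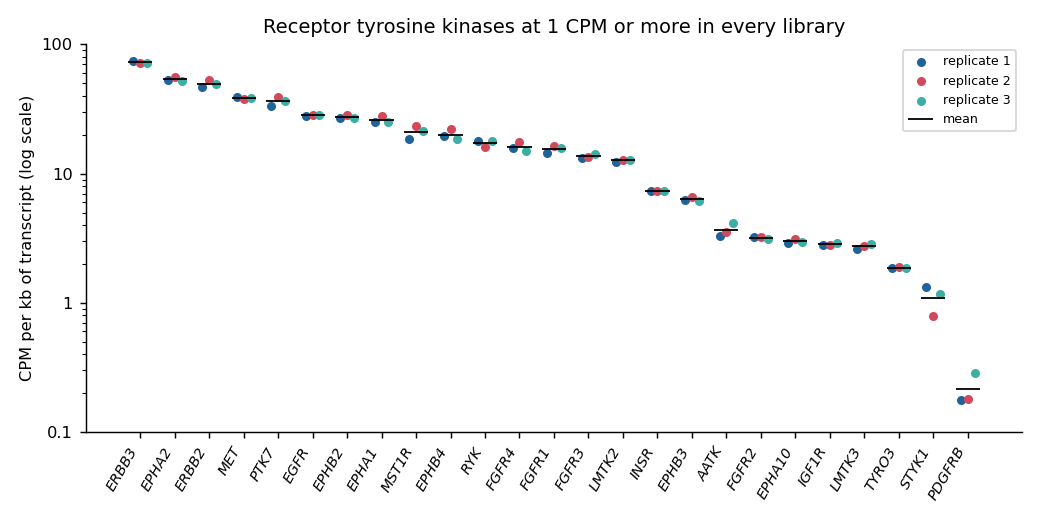
Level of the 25 reached receptor tyrosine kinases in each of the 3 LIM1215-parental libraries (points) and their mean (line), in CPM per kb of the canonical transcript on a log axis. ERBB3 leads at a mean of 73.1 and PDGFRB is last at 0.215 CPM per kb.

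Receptors known from other lineages had few or no counts. KDR, FLT4, FLT3, PDGFRA, RET, ALK, ROS1, TEK and NTRK3 were among the 17 listed at 0. KIT held 2, 1 and 0 counts. DDR1, a collagen receptor of epithelia, was at 0.412 CPM in a locus fully covered by alternate sequences, so its value was not read as a level. AXL, a receptor that is often high in mesenchymal cells, held 12, 2 and 13 counts, fewest in replicate 2.

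Ligands were listed only for the EGFR family and for MET, MST1R, IGF1R and RET, and not for the other receptor tyrosine kinases. Of the 16 listed, 5 were reached (31.2%, against 55.0% of all protein-coding genes), all of them ligands of EGFR. TGFA held 56.1, 54.2 and 57.2 CPM, EREG held 38.9, 32.0 and 33.7 CPM, and AREG held 20.3, 19.4 and 20.6 CPM. BTC was at 10.7 and HBEGF at 6.3 CPM, and replicate 2 was the lowest for TGFA, EREG, AREG and HBEGF. Per kb the order was AREG at 16.3, TGFA at 13.6, EREG at 7.55, BTC at 4.05 and HBEGF at 2.67 CPM per kb, with no overlap. EGF was at 0.206 and EPGN at 0.186 CPM. Hepatocyte growth factor (HGF) and the neuregulins NRG3 and NRG4 were listed at 0, and NRG1, a ligand of ERBB3, held 1, 0 and 5 counts.

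Of 32 receptors for Wnt, Notch ligands and members of the TGF-beta family, 25 were reached (78.1%, against 55.0% of all protein-coding genes), with a list median of 21.9 CPM against 4.73 CPM. The Wnt co-receptor LRP5 at 33.2 and the Wnt receptor FZD5 at 32.1 CPM per kb led and overlapped. NOTCH1 followed at 20.2 CPM per kb, with 183, 212 and 186 CPM, highest in replicate 2. FZD6 was at 16.9 and LGR4, a relative of LGR5, at 15.0 CPM per kb. By the union of exons, FZD6 stood above NOTCH1. TGFBR2, the ligand-binding TGF-beta receptor that is often mutated in tumours with defective mismatch repair, held 19.1, 22.9 and 18.3 CPM, and TGFBR1 was at 38.2 CPM. SMO, the signal transducer of the Hedgehog pathway, held 1 count in all, while PTCH1, the Hedgehog receptor, was at 53.3 CPM. NOTCH4 was listed at 0 within an alternate sequence, and NOTCH3 lay just above the limit at 1.16 CPM.

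Of 48 nuclear receptors, 26 were reached (54.2%, against 55.0% of all protein-coding genes) and 13 were listed at 0. VDR held 386, 416 and 359 CPM, and HNF4A was next per kb at 52.2 against 83.9 CPM per kb for VDR. ESRRA, a regulator of energy metabolism, at 41.8, the thyroid hormone receptor THRA at 36.1 and NR2F6 at 35.7 CPM per kb followed, and neighbours among these 3 overlapped. By the union of exons, VDR kept rank 1, NR2F6 had rank 2 and HNF4A rank 5. PPARG, a fatty acid receptor of the colon, was at 29.3 CPM per kb. The glucocorticoid receptor NR3C1 held 2, 0 and 0 counts outside shared loci, whereas the mineralocorticoid receptor NR3C2 was at 4.86 CPM. ESR2, an estrogen receptor, was at 0.383 CPM. RXRB, a partner of many nuclear receptors, was at 0.235 CPM within an alternate sequence, and its relative RXRA was at 94.6 CPM.

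Of 50 cytokine, death and pattern recognition receptors, 25 were reached, near the 55.0% of all protein-coding genes, and 11 were listed at 0. LTBR, the lymphotoxin receptor, at 55.5 and IL1R2, a decoy receptor of interleukin 1, at 51.6 CPM per kb led and overlapped. By the union of exons, ACKR3 had rank 1, IL1R2 rank 2 and LTBR rank 5. IL1R1, the signalling receptor, was at 0.721 CPM. The death receptors TNFRSF10B held 107, 105 and 114 CPM, TNFRSF10A was at 44.4 and FAS at 17.3 CPM. The interferon receptor genes IFNAR1 at 57.1, IFNAR2 at 30.9 and IFNGR1 at 55.7 CPM were reached, and IFNGR2 at 2.52 CPM lies under alternate sequences for 92.6% of its length. IL6ST, the signalling chain for interleukin 6, was at 55.6 CPM while IL6R held 1 count. Among Toll-like receptors, TLR3 at 8.96 and TLR5 at 4.2 CPM were reached.

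Genes often altered in colorectal cancer were nearly all present. Of 28, 27 were reached (96.4%, against 55.0% of all protein-coding genes) and none was listed at 0. CTNNB1, which encodes beta-catenin, held 596, 612 and 583 CPM, and APC held 64.7, 57.1 and 61.3 CPM. Of the genes of the RAS and MAPK pathway, NRAS was at 141 and BRAF at 36.3 CPM. HRAS held 1, 0 and 0 counts, and its locus is fully covered by alternate sequences, so that its level cannot be read from these tables. Of the mismatch repair genes, MSH6 was at 159 and PMS2 at 19.7 CPM. Per kb of the canonical transcript, CTNNB1 at 163 stood above AXIN2 at 130 CPM per kb, without overlap. This order depended on the length, since AXIN2 stood above CTNNB1 with the longest transcript and with the union of exons.

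Most members of several families that serve sensory, skin or immune cells were without counts. Of 392 olfactory receptor genes, 374 (95.4%) were listed at 0, against 28.2% of all protein-coding genes, and 332 of the 350 outside shared loci. OR51E1, which is also known from cells outside the nose, was the only olfactory receptor reached, at 4.67, 5.33 and 5.25 CPM. All 39 beta-defensin genes and all 17 type I interferon genes were listed at 0, as were 87 of 94 keratin-associated protein genes, 18 of 19 late cornified envelope genes and 52 of 53 clustered protocadherin genes. Outside shared loci the counts at 0 were 26 of 26 beta-defensin, 54 of 61 keratin-associated protein and 38 of 39 protocadherin genes, and no interferon or late cornified envelope gene lies in a shared locus. Of 25 bitter taste receptor genes, 20 were listed at 0, but 13 of these lie in shared loci, and outside them 7 of 11 were at 0. TAS2R4 was reached at 2.87, 1.39 and 2.81 CPM, lowest in replicate 2. Of 15 kallikrein genes, KLK1 at 16.7 and KLK10 at 10.7 CPM were reached (13.3%, against 55.0% of all protein-coding genes).

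Families of channels, carriers and enzymes were split. Of 96 potassium channel genes, 17 were reached (17.7%, against 55.0% of all protein-coding genes) and 53 were listed at 0 (55.2%, against 28.2%). Most counted were KCNE3 at 105, KCNQ1 at 84.3 and KCNK5 at 71.1 CPM, and KCNE3 and KCNQ1 encode the subunits of a channel of colon crypts. Of 378 solute carrier genes, 189 were reached and 27.2% were listed at 0, both near the shares of all protein-coding genes, and the amino acid transporter SLC7A5 was the most counted, with 902, 1006 and 868 CPM, highest in replicate 2. Of 55 cytochrome P450 genes, 14 were reached (25.5%, against 55.0%), led by CYP2J2 at 331, CYP51A1 of sterol synthesis at 329 and CYP2S1 at 329 CPM. Of 507 numbered zinc finger genes, 364 were reached (71.8%, against 55.0%), with a list median of 7.53 CPM against 4.73 CPM over all protein-coding genes.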

How the data were processed

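Poly(A) RNA of untreated LIM1215-parental cells was sequenced in 3 libraries. The authors aligned reads to hg38 with STAR and deposited raw counts per gene from HTSeq 0.9.1, without normalization or lines for unassigned reads. The annotation used is not given in the sources used here. Of 58920 names, 57910 matched RefSeq.

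CPM used TMM factors (edgeR 4.0.16, R 4.3.3) over genes with at least 10 counts. Lengths came from GENCODE canonical transcripts, and not from RefSeq exons as planned, for 39731 names. Alternate sequences were aligned with minimap2 2.31-r1302 and kept over 10000 bases with at most 1% divergence. The spread estimate was tested on simulated counts. The genes named were the 20 most abundant by CPM and per kb, members of the fixed lists, families chosen by symbol pattern and the 10 genes at 10 CPM or more that varied most. The gene lists and the genes in them were chosen with earlier results of these data known. No groups were compared, so there are no p-values. Depth was 13737416 to 18725014 counts, and 3 counts in a library correspond to 0.16 to 0.218 CPM. Alternatives were DESeq2 1.42.0 size factors, total counts, other thresholds and lengths, and each library left out. Some members of the lists are counted but not reported by name here.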

Additional observations from a re-analysis of the deposited data

How the results depend on the processing

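The number of genes reached was 12132 and stayed there with total counts only or DESeq2 size factors. It lay between 11226 at a limit of 2 CPM and 13083 at 0.5 CPM, was 12488 by the mean of the libraries, 12790 with at least 10 counts in every library and, in an alternative chosen after seeing the data, 11595 outside shared loci. Leaving out each library in turn gave 12225 to 12269. The number of protein-coding genes listed at 0 was 5605, with 5884 to 5976 when a library was left out, 6887 with up to 3 counts allowed, 5264 without LOC names and 4857 outside shared loci. Of 607 listed genes, 285 were reached, 287 or 288 when a library was left out and 271 outside shared loci. The share of the 100 most counted genes was 20.9%, no lower than 20.8% when a library was left out, and 15.9% without mitochondrial genes. The mitochondrial share was 7.17% to 7.26%, and 6.47% from protein genes only. The share of protein-coding genes stayed at 98.0% without each library and was 98.6% without mitochondrial genes. The coefficient of variation was 5.24% with no filter, and 2.87% to 6.22% when a library was left out, lowest without replicate 2. Scaling moved none of the 285 levels by more than the SD between libraries, and leaving out a library moved 1 gene each time. A mean over the libraries kept can hardly leave the SD of all libraries, so this limit says little about leaving one out. The largest change of any of the 285 levels on leaving out a library was 1.21-fold. With the longest transcript, 36 of the 285 levels per kb moved by over 1.5 times, and with the union of exons, chosen after seeing the data, 127. No paired analysis was possible because only the LIM1215-parental group was described and nothing was compared between groups. Depth limits the levels that a count of 0 allows, and length and shared loci limit comparisons between genes.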

Other observations

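Non-coding genes added little to the counts, but a few were abundant. Of 17371 lncRNA genes, 609 were reached (3.51%) and 12544 were listed at 0. SNHG29, a host gene of small nucleolar RNAs, held 750, 808 and 745 CPM. NORAD, which binds Pumilio proteins, was at 337 CPM and FGD5-AS1 at 201 CPM. MALAT1, a nuclear lncRNA, held 178, 132 and 178 CPM and was lowest in replicate 2. Of 16193 pseudogenes, 490 were reached. The highest were MTATP6P1 at 372, C19orf48 at 212 and MTND2P28 at 153 CPM. MTATP6P1 and MTND2P28 are copies of mitochondrial genes on chromosome 1, and their reads cannot be told apart from those of the mitochondrial genome with certainty.

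The 10 most variable genes at 10 CPM or more differed by 1.63-fold to 2.87-fold between libraries, and replicate 2 was the highest in 8 of them. Of the 10, 6 are pseudogenes of ribosomal proteins, led by RPS27AP16 with 13.7, 18.9 and 6.57 CPM. The 1850 pseudogenes of ribosomal proteins summed to 832, 1047 and 791 CPM in replicates 1, 2 and 3. Among protein-coding genes, IDUA held 7.54, 9.72 and 13.6 CPM and KLHL17 held 10.5, 17.2 and 18.8 CPM, both highest in replicate 3.

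Outside shared loci, the share of protein-coding genes that were reached ranged over the chromosomes from 40.6% of 825 genes on X and 47.3% of 222 genes on chromosome 21 to 65.0% of 765 genes on chromosome 16. On chromosome 19, 54.6% of 1308 genes were reached, at a median of 32.7 CPM, and on chromosome 13 58.0% of 319 genes, at a median of 51.3 CPM.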
